A study of Mus musculus with 6 samples.

Results

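The genes described here are the nuclear genes for subunits of the 5 oxidative phosphorylation complexes, in spleens of mice with and without the Was gene. Members were chosen by symbol: names beginning with Nduf, Uqcr, Atp5, Cox4, Cox5, Cox6, Cox7 or Cox8, together with Sdha, Sdhb, Sdhc, Sdhd and Cyc1. Of the 26452 genes in the deposited table, 97 carried such a symbol, 6 were set aside as pseudogenes named with -ps, and all of the remaining 91 had a mean normalized count of at least 1 and were kept. The symbols reach slightly beyond the subunits. There were 80 subunit genes, 36 of complex I, 4 of complex II, 9 of complex III, 16 of complex IV (with Ndufa4) and 15 of complex V. The other 11 were 8 assembly factors of complex I (Ndufaf1 to Ndufaf8), the Ndufa4 paralog Ndufa4l2, and Atp5s and Atp5sl, which resemble ATP synthase genes in name but do not encode its subunits. Within complex IV, Cox7a2l encodes a factor that joins complexes III and IV into supercomplexes.

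Bulk messenger RNA was sequenced from the spleens of 3 Was knockout mice (libraries KO451, KO452 and KO457; 129S6/SvEvTac carrying the Was tm1Sbs allele, here called KO) and 3 wild-type 129S6/SvEvTac mice (WT453, WT454 and WT455, here called WT). All mice were 10-week-old males. Was encodes the actin regulator of blood cells that is lost in Wiskott-Aldrich syndrome, and the allele is a germline one, present in every cell of the animal. Replicates carry separate animal numbers, and values below are listed in the library order just given.

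The respiratory chain sits in the inner mitochondrial membrane. Complex I takes electrons from NADH and complex II from succinate, complex III passes them on to cytochrome c, complex IV hands them to oxygen, and complex V, the ATP synthase, uses the proton gradient that complexes I, III and IV build. Complexes I, III, IV and V also contain subunits encoded by the mitochondrial genome, while complex II is nuclear throughout. The nuclear genes are often controlled by the transcription factors NRF1, GABPA and YY1, whose recognition letters are frequent in their promoters.

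Those letters can be read in the promoters of several genes on which the results below turn. In RefSeq windows of GRCm38.p6 that run from 250 bases before to 50 bases after a gene start, 72 of the 91 members had an entry. The NRF1 letters, GCGCA and GCGC with any base between them, searched on both strands like the others, were found in 19 of the 72 members (26.4%), against 5.19% of the 27025 genes with a window. The ETS letters CCGGAAG, the core bound by GABPA, stood in 18 members (25%) and 9.93% of genes, and the YY1 letters AAGATGGCG in 8 members (11.1%) and 1.64% of genes. The first pair of motifs is shown in the 150 bases before the start of 5 members, written 5′ to 3′ on the strand of the gene, which is the minus strand in each, with motif matches on either strand in capitals. Sdha and Sdhd are complex II genes that differed in how they stood in the libraries, and Atp5h, Uqcr11 and Cox6a1 stand for complexes V, III and IV. The windows are chr13:74350241-74350390 for Sdha, chr9:50603850-50603999 for Sdhd, chr11:115419920-115420069 for Atp5h, chr10:80406822-80406971 for Uqcr11 and chr5:115348959-115349108 for Cox6a1.
Sdha: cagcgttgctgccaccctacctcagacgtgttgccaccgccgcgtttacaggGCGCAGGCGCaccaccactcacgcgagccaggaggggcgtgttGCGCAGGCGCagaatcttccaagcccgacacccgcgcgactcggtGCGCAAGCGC
Sdhd: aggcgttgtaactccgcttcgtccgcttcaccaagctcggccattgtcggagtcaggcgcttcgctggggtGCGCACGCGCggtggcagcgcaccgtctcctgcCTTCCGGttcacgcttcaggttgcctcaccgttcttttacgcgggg
Atp5h: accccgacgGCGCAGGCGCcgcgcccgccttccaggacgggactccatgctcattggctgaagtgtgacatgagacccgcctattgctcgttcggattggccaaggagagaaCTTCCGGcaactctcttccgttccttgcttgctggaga
Uqcr11: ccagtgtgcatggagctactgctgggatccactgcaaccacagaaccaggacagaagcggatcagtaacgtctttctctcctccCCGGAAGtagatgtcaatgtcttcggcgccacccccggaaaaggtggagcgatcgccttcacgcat
Cox6a1: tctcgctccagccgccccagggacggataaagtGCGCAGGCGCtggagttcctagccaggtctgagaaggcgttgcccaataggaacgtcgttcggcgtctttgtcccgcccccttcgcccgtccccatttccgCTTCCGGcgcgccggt
Sdha held 3 copies of the NRF1 letters, Sdhd, Atp5h and Cox6a1 held 1 NRF1 and 1 ETS match each, and Uqcr11 held 1 ETS match. A match describes the letters only. Members with the NRF1 letters had a median log2 fold change of 0.20 (n = 19), and members with a window but without them 0.27 (n = 53). Leaving out the wild-type library WT453, which is described below, these medians were 0.57 and 0.47, in the opposite order.

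The libraries held between 30661759 and 38402758 reads assigned to genes. Was itself, which checks the labels, had normalized counts of 508, 407 and 409 in KO spleens, against 4142, 6561 and 6279 in WT spleens. Its log2 fold change was -3.66 ± 0.25 (SE, n = 3 each), with a limma adjusted p of 0.0117. When 1 library at a time was left out that p was between 0.0447 (without WT453) and 0.341, and it was above 0.05 without each of the other 5. One library, WT453, stood apart from the other WT libraries and received a weight of 0.178 in a fit with library quality weights, against 0.858 to 2.48 for the other 5. Because WT453 touches nearly every result on the respiratory chain, values are given with and without it.

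Transcripts of the respiratory chain stood on the whole slightly higher in KO than in WT spleens. The median difference was about as large as the spread between libraries of a group (SD of the library medians 0.25 on the log2 scale, pooled within groups). The log2 fold change, KO minus WT on the scale of log2(normalized count + 1), was above 0 in 80 of 91 members (87.9%), against 47.7% of the 22071 genes tested. Its median over the members was 0.27, a fold of 1.21, against -0.03 over all genes tested. When libraries were scaled to their total counts instead, which moved the median of all genes by -0.13, the median of the members was 0.12, and 59 members (64.8%) and 38.5% of genes were above 0. The median was 0.18 without WT454. No member passed the limma test after Benjamini-Hochberg adjustment over all genes. Their smallest adjusted p was 0.344, and 0.00906% of all genes passed. At an unadjusted limma p under 0.05, 11 members were higher in KO (5.5% of all genes) and 1 was lower (5.46% of all genes). The 3 KO values lay above all 3 WT values in 22 members (24.2%; 9.54% of all genes) and below them in 2, Cox7a1 and Atp5sl (9.94% of all genes). In bulk tissue, fewer cells of a type and less RNA per cell cannot be told apart, and this holds for every level below.

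The summed level shows how much of this turned on WT453. All 91 members together took 0.934%, 0.852% and 0.897% of the reads in the KO libraries, against 0.996%, 0.752% and 0.781% in the WT libraries. Wilson 95% intervals, which cover counting error only, were at most 0.00343 percentage points to either side. The group means were 0.894 ± 0.041% in KO and 0.843 ± 0.134% in WT (SD, n = 3 each), and the groups overlapped, with WT453 the highest library of all. That library held the highest value of the 6 in 41 members and the lowest in 12, while WT454 was lowest in 58 members and KO451 highest in 29. Over all genes tested, WT453 was highest in 31.7% and lowest in 25.8%.

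Without WT453 the 3 KO libraries were compared with WT454 and WT455. The 3 KO values then lay above both WT values in 73 of 91 members (80.2%; 19.2% of all genes) and below both in 3, Cox7a1, Cox7a2l and Atp5sl (21.2% of all genes). The median log2 fold change was 0.49, a fold of 1.40, against -0.01 over all genes. At an unadjusted limma p under 0.05, 48 members were higher (8.53% of all genes) and 1, Atp5sl, was lower (9.67%). The smallest limma adjusted p was 0.165, so no member passed in this comparison either. WT454 and WT455 had the lowest library medians of the series, at -0.38 and -0.25 relative to each gene's mean over the 6 libraries. The same medians were 0.20, -0.03 and 0.22 in KO451, KO452 and KO457, and 0.23 in WT453. KO452 was therefore the KO library nearest to the WT pair.

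**Figure D1:**
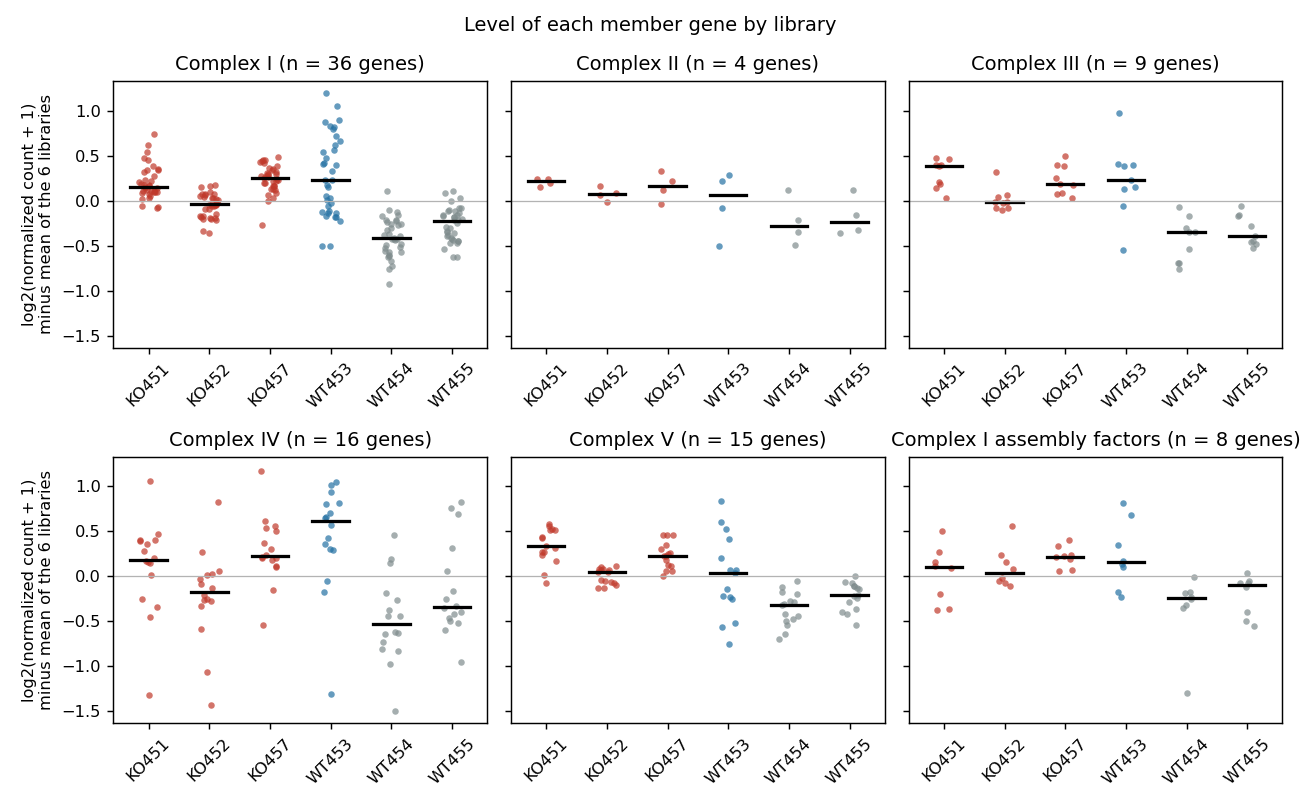
Each point is 1 gene in 1 library, as its log2(normalized count + 1) minus the mean of the 6 libraries for that gene, for the 5 complexes and the complex I assembly factors; black bars are medians, KO libraries are red, WT453 is blue and the other WT libraries are grey. The medians of WT454 and WT455 sit below 0 in each panel, while WT453 is spread widely, with a complex IV median of 0.61.

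Complex I is the largest of the complexes, and 33 of its 36 genes had a log2 fold change above 0, with a median of 0.26 and a range of -0.05 to 0.70. That median was 0.11 with libraries scaled to total counts, 0.16 without WT454 and 0.47 without WT453. Its catalytic core has 7 nuclear subunits, among them Ndufv1 and Ndufv2, which carry the flavin and the iron-sulfur clusters or shape the quinone site. All 7 were above 0, with a median of 0.27, and 4 of them had KO values above all WT values, as had 9.54% of all genes. The 29 accessory subunits had a median of 0.20, and 5 of them were separated in this way, beside the same 9.54% of all genes. Without WT453 the core median was 0.29 and the accessory median 0.49. The core and the accessory subunits thus gave similar medians with all libraries, while leaving out WT453 moved only the accessory one by more than 0.1.

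Ndufv1, the subunit that binds NADH and the flavin, had the largest difference of the core. Its normalized counts were 3034, 1822 and 2253 in KO spleens, against 1276, 1474 and 1532 in WT spleens. All KO libraries were above all WT libraries, and the log2 fold change was 0.70 ± 0.24 (SE), with a limma unadjusted p of 0.021 and an adjusted p of 0.382. Ndufb9, an accessory subunit of the membrane arm, had 3804, 2431 and 3373 in KO and 2495, 1623 and 1818 in WT, a log2 fold change of 0.69 ± 0.26 with KO452 below WT453. Ndufc2, another membrane-arm subunit chosen after its values were seen, had 1606, 1331 and 1725 in KO and 1083, 901 and 1151 in WT, with no overlap.

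Other complex I genes with many reads showed another arrangement. Ndufb7, an accessory subunit of the intermembrane side, had 3868, 3135 and 4418 in KO spleens, against 8305, 2185 and 2349 in WT spleens. Ndufv2, the small iron-sulfur partner of Ndufv1, had 3702, 2755 and 3482 in KO, against 5815, 2142 and 2347 in WT. In both genes WT453 was above every KO library and the other WT libraries were below every KO library, and the log2 fold changes were 0.11 ± 0.50 and 0.09 ± 0.39. Without WT453 they were 0.73 ± 0.17 and 0.55 ± 0.16. The lowest differences were those of the accessory subunits Ndufb5, at -0.05 ± 0.27, and Ndufb10, at -0.03 ± 0.44. Ndufb10 had the same arrangement, with 3440, 2784 and 2363 in KO and 5905, 2201 and 1847 in WT.

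The 4 genes of complex II, the succinate dehydrogenase of the citric acid cycle, had log2 fold changes between 0.18 and 0.37. Sdhb, the iron-sulfur subunit, was the tightest, with 3254, 3121 and 3420 in KO spleens and 2771, 2519 and 2636 in WT spleens. Its groups did not overlap, at a log2 fold change of 0.31 ± 0.17. The membrane anchors Sdhc and Sdhd had 3548, 3455 and 3349, and 4463, 3735 and 4734, in KO, against 3602, 2422 and 2462, and 4605, 2682 and 2944, in WT. For both anchors WT453 lay among the KO values or just above them, and the log2 fold changes of 0.31 ± 0.22 and 0.37 ± 0.25 were 0.50 ± 0.08 and 0.61 ± 0.14 without it. Sdha, the flavoprotein subunit, had 9772, 8628 and 8020 in KO, against 5841, 8934 and 8993 in WT. Here WT453 was the lowest library, and the log2 fold change of 0.18 ± 0.23 was -0.03 ± 0.12 without it.

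Complex III had a median log2 fold change of 0.42 over 9 genes, all above 0, and 0.28 with libraries scaled to total counts. Uqcr11, the smallest subunit (chr10:80402997-80406830, minus strand), had 2196, 2075 and 2352 in KO spleens, against 1597, 979 and 1272 in WT spleens. The groups did not overlap, and the log2 fold change of 0.81 ± 0.23 was the largest of the complex, with a limma unadjusted p of 0.00949 and an adjusted p of 0.349. Uqcr10, a small subunit beside it, had 3073, 2439 and 3055 in KO and 2727, 1606 and 1616 in WT, a log2 fold change of 0.56 ± 0.26. The core proteins Uqcrc1 and Uqcrc2, which form the matrix-facing part, went apart in WT453. Uqcrc2 had 6349, 4982 and 5749 in KO and 3317, 4606 and 4666 in WT, whereas Uqcrc1 had 8075, 6589 and 7378 in KO and 9114, 5632 and 5741 in WT. WT453 was thus the lowest library for the first and the highest for the second, and their log2 fold changes were 0.45 ± 0.22 and 0.14 ± 0.24.

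The hinge protein gene Uqcrh had 7594, 6820 and 7269 in KO spleens and 7561, 6111 and 6159 in WT spleens, a log2 fold change of 0.13 ± 0.18 that was -0.01 with libraries scaled to total counts. The Rieske iron-sulfur protein gene Uqcrfs1 had a log2 fold change of 0.08 ± 0.24. Uqcrb, a quinone-binding subunit, had 2677, 2561 and 2948 in KO and 5137, 1613 and 1905 in WT. Its KO values lay between WT453 and the other WT libraries, as for Ndufb7, and its log2 fold change was 0.12 ± 0.42 with all libraries and 0.64 ± 0.12 without WT453. Without WT453 the KO values of all 9 genes were above both WT values, as were those of 19.2% of all genes.

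Complex IV had the widest spread of the complexes. Its median log2 fold change was 0.23, 11 of 16 genes were above 0, and the range ran between -1.19 and 0.94. WT453 was the highest library for 8 of the 16. The median was 0.59 without WT453, -0.03 without WT454, 0.04 without WT455 and 0.08 with libraries scaled to total counts, so its size and its sign depended on which WT library was left out. Cox7b, a small subunit (chrX:106015700-106022450, plus strand), was the one complex IV gene whose KO values all lay above the WT values. It had 4109, 3105 and 4229 in KO spleens, against 2645, 2301 and 2112 in WT spleens. The log2 fold change was 0.69 ± 0.21, with a limma unadjusted p of 0.0122 and an adjusted p of 0.355.

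Cox6a1, the widely expressed form of subunit VIa, had 7994, 6144 and 7174 in KO spleens and 7517, 3916 and 4822 in WT spleens, a log2 fold change of 0.44 ± 0.28. Cox5a, which binds a thyroid hormone metabolite and was chosen after its values were seen, had 3500, 3160 and 3619 in KO and 6288, 1756 and 2065 in WT. Its KO values lay close together between WT453 and the other WT libraries, and the log2 fold change was 0.27 ± 0.46 with all libraries and 0.84 ± 0.12 without WT453. Cox4i1, the main form of the regulatory subunit IV, had 9123, 7558 and 8118 in KO, against 11506, 10273 and 8047 in WT. Its log2 fold change of -0.25 ± 0.21 was below 0 also without WT453, at -0.14 ± 0.16, with overlapping groups. Cox7a2l, the supercomplex factor (chr17:83501918-83517330, minus strand), had 6541, 10753 and 6144 in KO, against 8643, 12274 and 11110 in WT. KO451 and KO457 were below every WT library and KO452 was not, and the log2 fold change was -0.48 ± 0.27.

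Complex V took the largest share of reads of the complexes, not corrected for gene length, and its summed level did not overlap between groups. Its 15 genes took 0.375%, 0.328% and 0.341% of reads in KO spleens, against 0.310%, 0.281% and 0.295% in WT spleens. The summed level of complex II did not overlap either, but narrowly, with 0.0537% in KO457 and 0.0535% in WT455. All 15 complex V genes had a log2 fold change above 0, with a median of 0.45. Their KO values were above all WT values in 7 (9.54% of all genes). The 5 subunits of F1, the catalytic head with its central shaft, had a median of 0.35. The 10 of the outer stalk and the membrane-bound Fo part had 0.54. Without WT453 these medians were 0.32 and 0.59.

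Atp5b, the catalytic beta subunit (chr10:128083273-128090391, plus strand), had the most reads of all members, with normalized counts of 36512, 26352 and 28972 in KO spleens and 17336, 21651 and 22472 in WT spleens. The groups did not overlap, at a log2 fold change of 0.57 ± 0.22, a limma unadjusted p of 0.0343 and an adjusted p of 0.421. Atp5a1, the alpha subunit, had 30400, 25285 and 25968 in KO and 20441, 21267 and 22349 in WT, again without overlap, at 0.35 ± 0.19. Atp5c1, the gamma subunit of the central shaft, chosen after its values were seen, had 8084, 6972 and 8561 in KO and 4561, 6190 and 6759 in WT. For these 3 genes WT453 was the lowest library. For Atp5e, the epsilon subunit, WT453 was the highest, with 4064, 3687 and 4712 in KO and 5786, 3016 and 3469 in WT, and the log2 fold change was 0.07 ± 0.28.

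Several stalk and membrane subunits of the ATP synthase were separated as well. Atp5h, subunit d of the outer stalk (chr11:115415689-115419962, minus strand), chosen after its values were seen, had 8486, 6628 and 7741 in KO spleens, against 5270, 5017 and 5334 in WT spleens. The 3 WT libraries were close together here, with WT453 between the others, and the log2 fold change was 0.54 ± 0.18 with all libraries and 0.55 ± 0.14 without WT453. Atp5o, the protein that ties the stalk to the head, also chosen afterwards, had 6600, 4788 and 5568 in KO and 3990, 3732 and 3793 in WT, at 0.55 ± 0.19. Their limma adjusted p-values were 0.373 and 0.391. Atp5k, subunit e, which helps ATP synthase pair into dimers, had 2315, 1485 and 2129 in KO and 1625, 993 and 1177 in WT, with KO452 below WT453. Atp5f1, subunit b of the stalk, had 10607, 8218 and 10437 in KO and 13341, 6208 and 6014 in WT, a log2 fold change of 0.29 ± 0.34 that was 0.67 ± 0.15 without WT453.

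**Figure D2:**
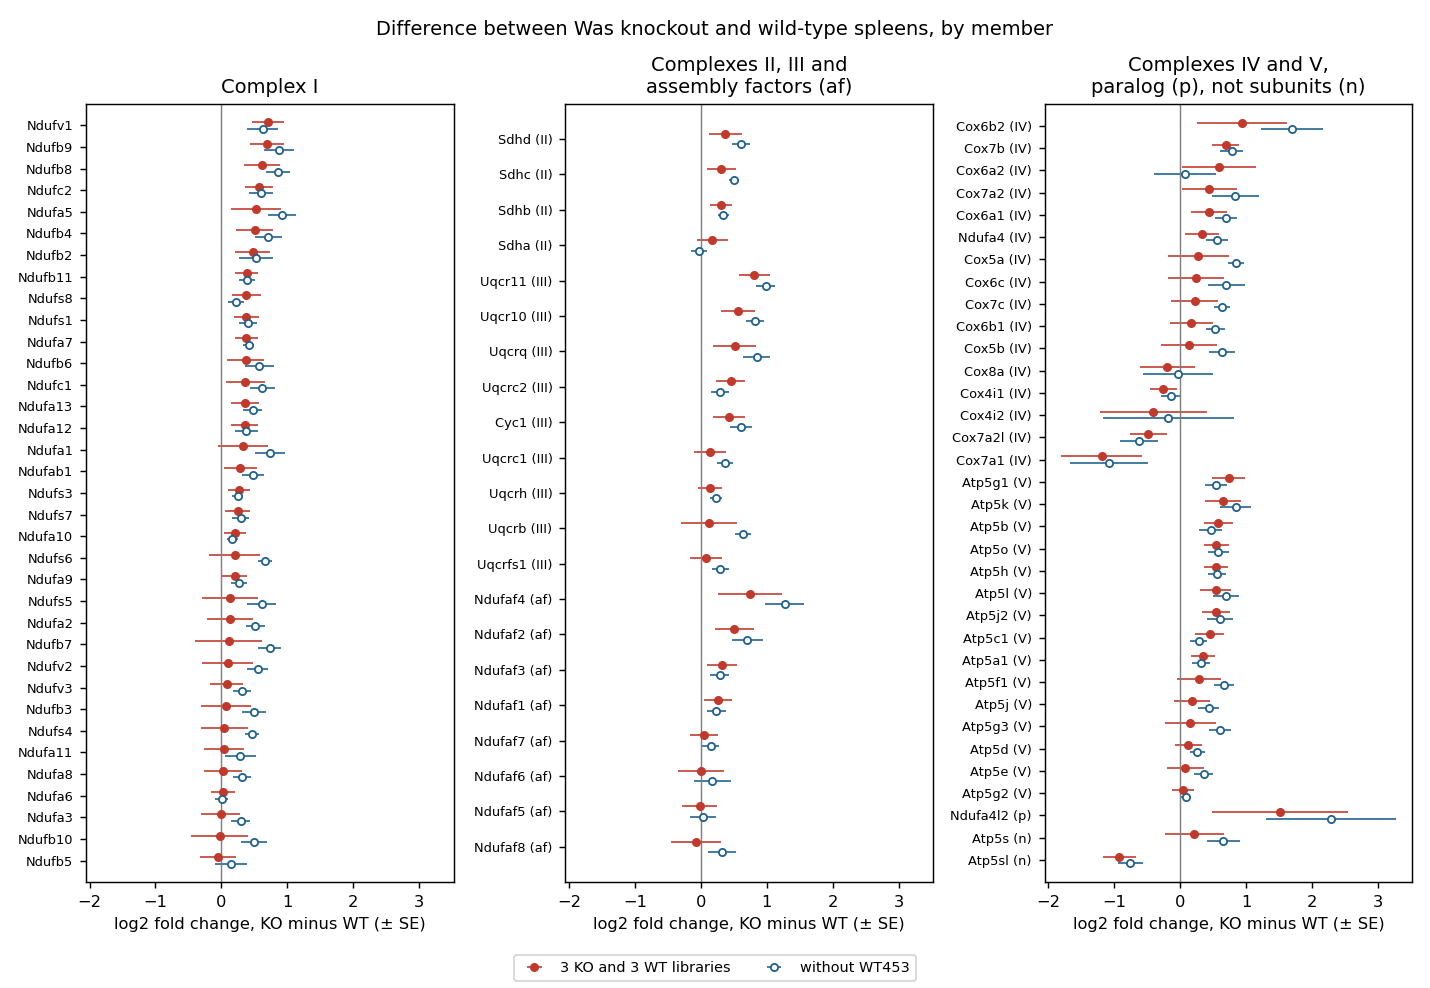
Points are log2 fold changes, KO minus WT, with limma standard errors as bars, for the members grouped by complex; filled red points use all 6 libraries and open blue points leave out WT453. Most points lie right of 0, and Cox4i1, Cox4i2, Cox7a1, Cox7a2l, Cox8a and Atp5sl lie left of it with and without WT453.

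Some subunits are encoded by more than 1 gene, and the forms can be compared as RPKM, reads scaled to exon length and library depth. The ring of the ATP synthase is built of an identical protein made by Atp5g1, Atp5g2 and Atp5g3. Atp5g1 was the least abundant, with 9.43 ± 0.963% of the summed RPKM in KO spleens and 6.57 ± 2.72% in WT spleens (SD, n = 3 each). Atp5g2 had 47.4 ± 4.37% and 50.4 ± 10.46%, and Atp5g3 43.2 ± 3.43% and 43.0 ± 13.03%, in KO and WT. The lengths used, over all annotated exons, were 4912, 1675 and 2181 bases for Atp5g1, Atp5g2 and Atp5g3. The size of these shares therefore depends on the annotation. By normalized counts Atp5g1 had 2789, 2082 and 2657 in KO against 1148, 1592 and 1842 in WT, a log2 fold change of 0.73 ± 0.25 and the largest of complex V. Atp5g2 had 4013, 4405 and 4394 in KO against 4414, 4077 and 3990 in WT, a log2 fold change of 0.04 ± 0.17 that was -0.11 with libraries scaled to total counts. Atp5g3, at 0.15 ± 0.39, had WT453 as its highest library. The 3 genes for 1 protein therefore stood differently in the same libraries.

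Among the complex IV forms, those typical of heart and skeletal muscle were low. Cox4i1 made up 99.5 ± 0.45% of the subunit IV pair in KO and 99.5 ± 0.285% in WT, the rest being Cox4i2, a form known from lung. Cox6a1 made up 97.7 ± 1.11% in KO and 97.6 ± 1.7% in WT, against the muscle form Cox6a2. Cox7a1, the muscle form of subunit VIIa, had only 3.22, 6 and 10.4 normalized counts in KO and 17.5, 10.6 and 17.7 in WT. Its KO values were below the WT values, at a log2 fold change of -1.19 ± 0.61 that rests on few reads. Cox7a2, the widely expressed form, had a share of 38.3 ± 13.3% in KO and 25.5 ± 13.3% in WT, and Cox7a2l 61.6 ± 13.3% and 74.2 ± 13.4%, with overlapping groups.

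Cox6b2, the form of subunit VIb known from testis, had the largest log2 fold change of the better measured complex IV genes. It had 786, 311 and 573 normalized counts in KO spleens, against 778, 132 and 193 in WT spleens. The log2 fold change was 0.94 ± 0.68 with all libraries and 1.69 ± 0.47 without WT453, which alone among WT libraries reached the KO range. Its partner Cox6b1 had 6285, 4709 and 5544 in KO and 8074, 3812 and 3755 in WT, and Cox6b2 made up 5.88 ± 1.7% of the RPKM of the pair in KO and 3.72 ± 1.87% in WT. Cox8a, the liver-type subunit VIII, had 4738, 1719 and 4623 in KO and 4819, 3155 and 3739 in WT, with KO452 the lowest library. Ndufa4, a complex IV subunit first assigned to complex I, had a log2 fold change of 0.33 ± 0.26. Its paralog Ndufa4l2 was near the limit of detection, with 21.4, 7 and 3.12 normalized counts in KO and 8.25, 2.45 and 0 in WT.

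**Figure D3:**
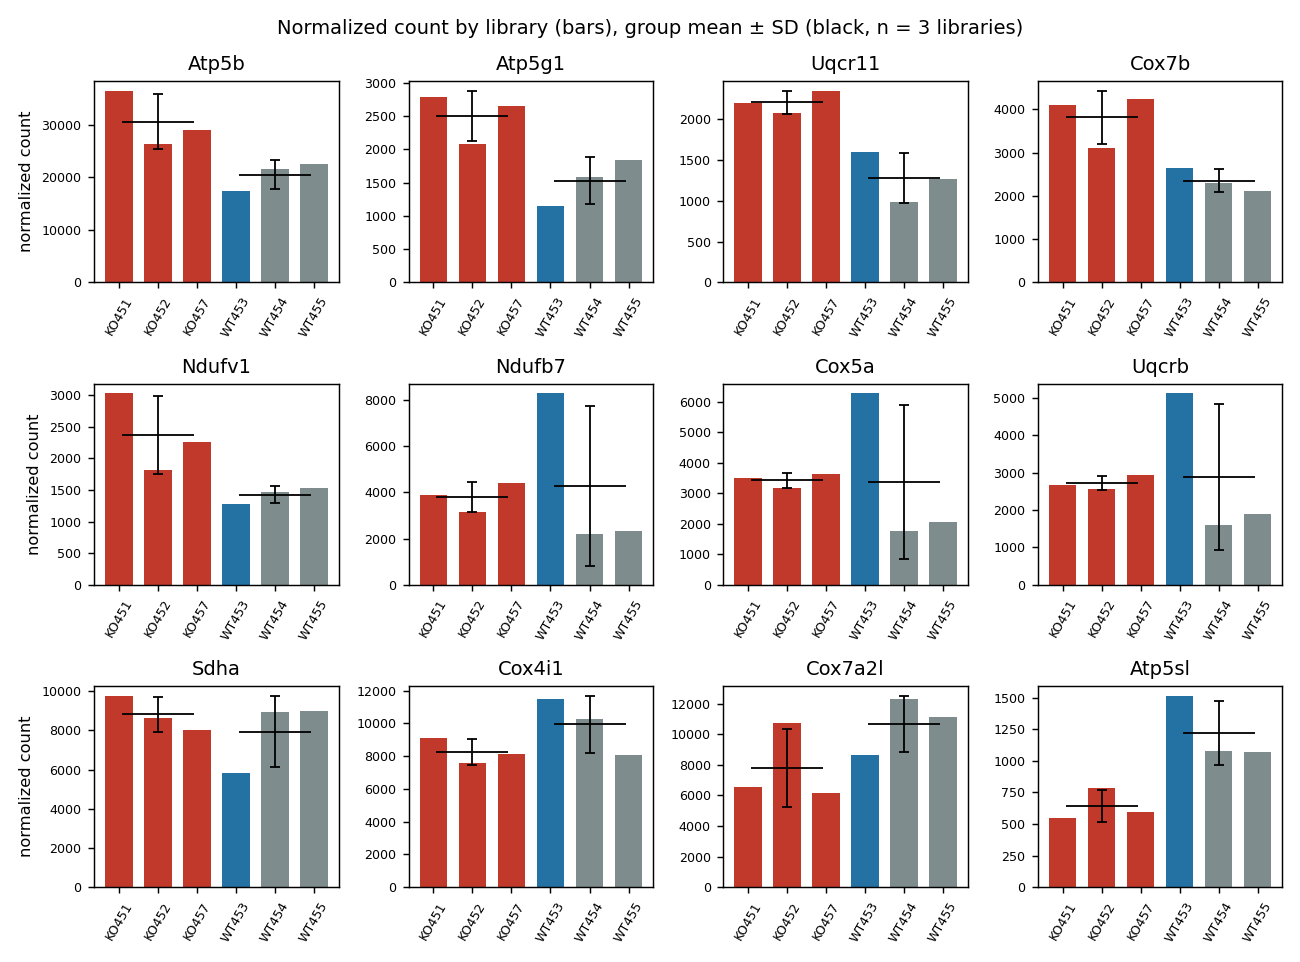
Bars are normalized counts of 12 members in each library, with KO in red, WT453 in blue and the other WT libraries in grey; black marks are the group mean ± SD (n = 3 libraries). In Atp5b, Atp5g1 and Ndufv1 WT453 is the lowest library, in Ndufb7, Cox5a and Uqcrb it is the highest, and in Atp5sl all KO libraries are below all WT libraries.

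The complex I assembly factors, which help build the complex and are not part of it, had a median log2 fold change of 0.15 over 8 genes, 0.01 with libraries scaled to total counts, 0.09 without WT454 and 0.26 without WT453. Ndufaf4 had 454.6, 599 and 535 in KO spleens and 649, 164 and 287 in WT spleens, the largest difference among them at 0.75 ± 0.48. Ndufaf2 had 437, 291 and 387 in KO and 339, 241 and 209 in WT, at 0.51 ± 0.30. Ndufaf1 had 525, 581 and 517 in KO and 438, 415 and 508 in WT, without overlap, at 0.26 ± 0.22. Ndufaf7, a methyltransferase, was at 0.05 ± 0.21, Ndufaf5 at -0.02 ± 0.27 and Ndufaf8 at -0.07 ± 0.38. None of the 8 reached an unadjusted limma p under 0.05 with all libraries.

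The clearest opposite case was Atp5sl (chr7:25619414-25625551, plus strand), chosen after its values were seen and no ATP synthase subunit despite its symbol; it is also known as Dmac2, a factor linked to assembly of the distal membrane arm of complex I. It had 544, 785 and 595 in KO spleens, against 1516, 1081 and 1067 in WT spleens. The groups did not overlap, and the log2 fold change was -0.93 ± 0.25, with a limma unadjusted p of 0.00725 and an adjusted p of 0.344, the smallest of the 91. It was between -1.08 and -0.76 when any 1 library was left out.

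In the authors' deposited table, 4 of the 91 members (4.40%) had an FDR under 0.05, against 3.58% of all 26452 genes. In the authors' deposited table Cox7b (FDR 0.0245), Uqcr11 (0.0265) and Atp5h (0.0338) were higher in KO, where 2.14% of genes were, and Atp5sl (0.0135) was lower, where 1.44% of genes were. The method behind that FDR is not given in the sources used here.

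Short genes with many copies can share reads. In GENCODE M21, 32 members overlapped an exon of another gene, 29 of them on the opposite strand, and the strand setting of the counting is not given. Another property was a pseudogene copy at least 95% identical over at least 200 bases, found for 21 members. The reads counted on these copies came to over 5% of the member's own in 8 members, whose levels are uncertain to that extent. The largest were 56.4% for Ndufb4, 43.0% for Atp5g2, 19.4% for Atp5g1, 17.3% for Atp5l and 12.8% for Atp5h. Ndufs5 had 8.41%, Ndufa12 6.17% and Ndufab1 5.74%. The 48 members with neither property had a median log2 fold change of 0.21 with all libraries and 0.47 without WT453, and KO values above all WT values in 10 (9.54% of all genes) and 37 (19.2% of all genes) of them. Transcript length, as the longest principal transcript of each member in GENCODE, had a median of 908 bases. Across the 91 members, which share these libraries, its Spearman correlation with the difference between WT453 and the other WT libraries was -0.34, and with the log2 fold change 0.04, or -0.24 without WT453. The same correlations were -0.23, -0.10 and -0.23 over 10857 protein-coding genes with a mean count of at least 100.

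The remaining mitochondrial genes were described by lists chosen with earlier results of these data known. The 13 subunits encoded by the mitochondrial genome took 5.41%, 7.89% and 6.96% of reads in KO spleens, against 1.35%, 6.73% and 6.05% in WT spleens. All 13 were lowest in WT453, where the nuclear members as a whole were not. Their median log2 fold change was 0.98 with all libraries and 0.18 without WT453. Without it the 13 genes lay between -0.10 (mt-Nd5) and 0.50 (mt-Nd3), both complex I subunits, and 12 were above 0. The 18 citric acid cycle enzymes had a median of 0.24, and 0.23 without WT453, with 17 above 0. Idh3a, the catalytic subunit of NAD-linked isocitrate dehydrogenase, had 3245, 2503 and 3048 in KO against 1829, 2155 and 2203 in WT, at 0.50 ± 0.20, and Mdh2, malate dehydrogenase, was at 0.35 ± 0.17. No gene of these lists, or of those that follow, passed the limma adjusted threshold.

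Exchange and coupling genes, 10 measured, had a median of 0.37, and 0.38 without WT453. Atpif1, the inhibitor protein of the ATP synthase, had 11197, 4886 and 7115 normalized counts in KO spleens, against 4578, 2002 and 2897 in WT spleens, at 1.29 ± 0.40. Slc25a5, a carrier that exchanges ADP for ATP, had 17947, 15942 and 16584 in KO and 6748, 12738 and 12857 in WT, at 0.70 ± 0.29. The groups overlapped for neither gene, and the limma adjusted p-values were 0.355 and 0.442. Among 17 electron carriers, Etfa, a subunit of the flavoprotein that feeds electrons from fat oxidation to the quinone pool, was at 0.60 ± 0.20 and Coq8a, a kinase-like protein of coenzyme Q synthesis, at -1.02 ± 0.35. The 19 import genes had a median of 0.23, with Tomm5, a small part of the outer-membrane channel, at 1.44 ± 0.50 and Timm8b at 0.53 ± 0.23.

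The 43 assembly factors with other names had a median of 0.03 with and without WT453. Pet117, an assembly factor of complex IV, stood out among them with 124, 160 and 67.5 normalized counts in KO spleens, against 16.5, 0.816 and 1.04 in WT spleens, of which the last 2 are 1 read each. Its limma adjusted p was 0.344. Uqcc2 had 1163, 977 and 1168 in KO and 828, 688 and 762 in WT, without overlap, at 0.54 ± 0.20. The 17 regulators of mitochondrial genes had a median of -0.30, and -0.22 without WT453, with 14 below 0. Polrmt, the mitochondrial RNA polymerase, had 508, 501 and 432 in KO and 666, 742 and 841 in WT, at -0.64 ± 0.22. Tfam, which packages and transcribes mitochondrial DNA, had 1483, 1712 and 1540 in KO and 1716, 2248 and 1984 in WT, at -0.32 ± 0.20. Nrf1 was at 0.45 ± 0.29, Gabpa at 0.24 ± 0.21 and Yy1 at -0.04 ± 0.18. The median of the regulators was thus below 0, and that of the subunits above it.

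Marker lists of spleen and other cell types, chosen in the same way, were set beside these levels. The summed shares overlapped between groups for each list below but those of red cell precursors, pancreas, and immediate early and heat shock genes. All 19 measured markers of red cell precursors were above 0, and they took 8.58%, 2.87% and 3.37% of reads in KO spleens, against 0.262%, 0.795% and 1.29% in WT spleens. All 12 B cell markers were below 0, with 0.175%, 0.371% and 0.187% in KO and 0.206%, 0.626% and 0.485% in WT. All 16 T cell markers were below 0, with 0.0872%, 0.174% and 0.104% in KO and 0.113%, 0.287% and 0.260% in WT. The 12 neutrophil markers took 1.93%, 1.29% and 5.86% in KO and 9.46%, 0.577% and 1.13% in WT, and all 12 were highest in WT453. The 16 genes of dividing cells, all above 0, took 0.600%, 0.231% and 0.306% in KO and 0.356%, 0.109% and 0.152% in WT. The 13 red pulp macrophage markers, all above 0 and all lowest in WT453, took 0.566%, 1.02% and 0.589% in KO and 0.158%, 0.473% and 0.570% in WT. The 13 immediate early and heat shock genes, 11 of them below 0, took 0.0447%, 0.0555% and 0.0428% in KO and 0.209%, 0.0726% and 0.0643% in WT, with 9 highest in WT453. The 13 measured stromal and muscle markers took 0.00192%, 0.00213% and 0.00156% in KO and 0.0178%, 0.00113% and 0.000907% in WT. The 4 measured pancreas markers took 0.00407%, 0.00441% and 0.00322% in KO and 0.0014%, 0.00225% and 0.00242% in WT. Lists of plasma cell and megakaryocyte markers were also measured, and their shares overlapped. Measured markers are those with a mean normalized count of at least 1. Wilson 95% intervals of these shares were at most 0.0101 percentage points to either side.

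The neutrophil markers and the genes of dividing cells placed the libraries much as the respiratory chain did. Relative to each gene's mean, the medians of dividing cells were 1.26, -0.17 and 0.43 in KO451, KO452 and KO457. In WT453, WT454 and WT455 they were 0.37, -1.41 and -0.76. The neutrophil medians were -0.01, -0.78 and 1.36 in KO, and 2.03, -2.00 and -0.87 in WT. WT453 was above KO452 and the other WT libraries for each of these sets, and WT454 was lowest for each. The neutrophil markers gave the same order of libraries as the 91 members together, while KO451 was highest for dividing cells. For the members that order rests on small gaps, with medians of 0.23, 0.22 and 0.20 in WT453, KO457 and KO451. By complex, WT453 had the highest median only in complex IV, at 0.61. In complex V it was at 0.04, below every KO library. The red cell precursor medians were 2.62, 0.70 and 0.95 in KO and -2.07, -1.55 and -0.59 in WT. WT453 was thus the lowest for that list, while for the 91 members together it lay close to KO457 and KO451. The part of these cell types, and of WT453, in the levels of the respiratory chain was not tested.

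**Figure D4:**
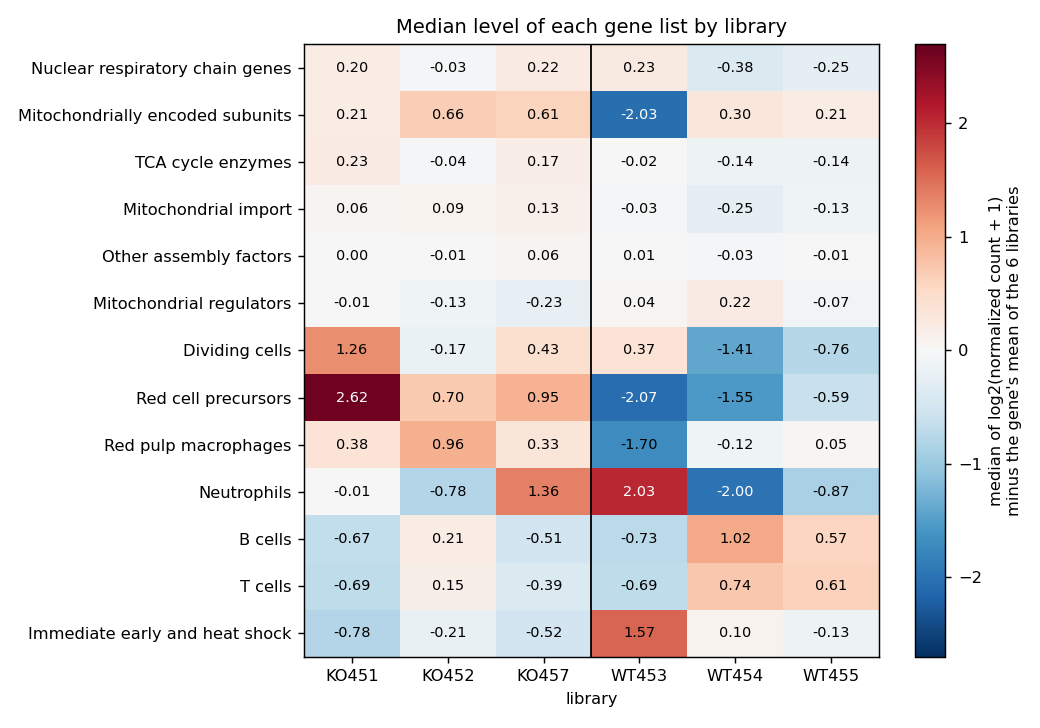
Each cell is the median, over the genes of 1 list in 1 library, of log2(normalized count + 1) minus the gene's mean over the 6 libraries, with KO libraries left of the black line and WT libraries right of it. The top row, the 91 members, is at 0.23 in WT453 and at -0.38 and -0.25 in the other WT libraries. The rows of dividing cells and of neutrophils are lowest in the same libraries.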

How the data were processed

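Total RNA of whole spleens was sequenced as messenger RNA libraries, 1 per mouse, per the labels' protocols. The submitters' processing notes name GRCm38 and list StringTie 1.3.1c, STAR 2.5.3a, DESeq and FastQC 0.11.5. How reads were counted, with which annotation and whether by strand, is not given in the sources used here. Deposited values are on a log2 scale, as the logarithm of 1 plus the size-factor-scaled read count, and the table also holds the authors' log2 fold changes with the p-value and FDR of their comparison, per the file headers. In each library 100% of the back-transformed values were whole multiples of 1 step (tolerance 0.001), which gave back the reads per gene and the depth, and 3 reads correspond to 0.0781 to 0.0978 CPM. Normalized count means that back-transformed value.

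Groups came from the genotype labels. limma 3.58.1 (R 4.3.3) with an intensity trend was fitted on the log2 values of the 22071 genes with a mean normalized count of at least 1 (4381 were left out), with Benjamini-Hochberg adjustment at 0.05; the procedure was tested on simulated data. The limma p-values measure the spread between 3 mice per group, and an exact permutation test of 3 against 3 cannot go below 0.1. Members, lists and the subunit groups were chosen with earlier results of these data known. Named members are the 3 most abundant and, at a mean of at least 100, the 2 largest and 2 smallest log2 fold changes of each complex, the isoform sets, the mitochondrially encoded list and the 2 smallest p-values of each other pathway list; others are marked where they appear, and 1 named member is not reported here. RPKM uses recovered reads and GENCODE M21 exon lengths; copies were found with BLAST 2.17.0. Alternatives were other pseudocounts, filters and scalings, voom with and without quality weights, and leaving out each library.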

Additional observations from a re-analysis of the deposited data

How the results depend on the processing

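No alternative brought a member past the limma adjusted threshold. The median log2 fold change of the 91 members was above 0 in all 18 settings, between 0.12 (libraries scaled to total counts) and 0.49 (without WT453), and was 0.28 under voom and 0.46 under voom with quality weights. The number of members above 0 ranged between 56 (without WT454) and 84. The count higher in KO at an unadjusted limma p under 0.05 was 11 with all libraries (5.5% of all genes). It was 4 with scaling to total counts and 49 under voom with quality weights. When 1 library was left out it was between 2 (without KO457) and 48 (without WT453, where 8.53% of all genes were higher). The count lower in KO was 1 with all libraries (5.46% of all genes) and 2 with quality weights. When 1 library was left out it was between 1 and 2 (9.67% of all genes without WT453). For the other settings the share of all genes is not given, so those counts cannot be set against it. Members whose KO values were all above the WT values numbered between 22 and 73 when 1 library was left out (35 without KO452, where 14.6% of all genes did so, and 73 without WT453, where 19.2% did; 12% to 13% in the other 4), and those all below numbered 1 with a filter at a mean of 1 CPM, which drops Cox7a1. The median of complex II was 0.16 with scaling to total counts. The cause was not tested. No paired analysis was possible because the groups share no animal numbers. Depth limits Cox7a1, Cox4i2 and Ndufa4l2, which rest on few reads, and 3 mice per group limit the rest.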
